A study of Homo sapiens with 10 samples.

Results

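Short hairpin RNAs against HDAC3 were compared with each other in MM.1S, an established human multiple myeloma cell line, through the 4 arrays titled shHDAC3#1 (n = 2) and shHDAC3#2 (n = 2) among the 10 arrays of the study. Cells were infected with lentivirus carrying 1 hairpin, and total RNA was taken 48 h later and measured on an Affymetrix 3′ expression array. The other arrays were a luciferase hairpin as control (shLuc, n = 2) and hairpins against DNMT1 (shDNMT1#1 and shDNMT1#2, n = 2 each), so that every group, the control included, carried a virus and a hairpin. Neither the hairpin sequences nor their sites in HDAC3 were used here. Nothing in the labels ties the arrays of 1 hairpin to separate cultures, and p-values therefore reflect the spread among these arrays only, possibly a technical one. No array without a hairpin was analysed here. Genes named beyond the largest differences and the leading called members of each list were chosen after their values were seen. All differences below are shHDAC3#2 minus shHDAC3#1 on the log2 scale of the deposited RMA values unless stated. Where another probe set of a called gene, with a mean level of at least 5, gave under 50% of the difference or the opposite sign, its value stands beside the gene as that of another probe set. Levels under 5 are called dim, and the size of a difference that reaches into them is uncertain. Errors are limma's standard errors (SE).

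HDAC3 works inside the co-repressor complexes built on NCoR and SMRT, where it removes acetyl groups from histone tails at their target genes. A hairpin RNA is processed by Dicer and loaded into an Argonaute protein, which cleaves the matching messenger RNA. Its seed region can also pair with unrelated messengers, and for this reason a knockdown is usually made with more than 1 hairpin against the same target. A response to loss of the target would be shared by such hairpins when they lower it alike, whereas a difference between them cannot be read as a response to the target alone.

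The 10 defining plasma cell markers (among them SDC1, TNFRSF17, IRF4, PRDM1, XBP1 and CD38) were all at a mean level of at least 5 with each hairpin. So were 6 of 6 erythroid, 6 of 8 stromal, 5 of 8 T cell and 5 of 8 epithelial markers. Of 6 myeloid markers, 5 were with shHDAC3#1 and 4 with shHDAC3#2. Over the 10 arrays 14763 of 19775 genes had such a mean, so this level does not tell cell types apart. Arrays of 1 hairpin correlated with r = 0.9963 across genes for each hairpin, and arrays of different hairpins with r between 0.9843 and 0.9861. The root mean square difference was 0.159 within shHDAC3#1, 0.165 within shHDAC3#2 and 0.302 to 0.328 between hairpins, so that none of the 4 arrays was a copy of another.

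HDAC3 itself was lowered by both hairpins. Its level was 5.97 and 5.72 with shHDAC3#1 and 5.83 and 5.52 with shHDAC3#2, against 7.26 and 6.61 with shLuc. All 4 knockdown arrays lay below both control arrays, and the arrays of the hairpins overlapped. Against shLuc the change was -1.09 with shHDAC3#1 (adjusted p = 0.000126) and -1.26 with shHDAC3#2 (adjusted p = 4.09e-05). The difference between hairpins was -0.17 ± 0.18 with a 95% interval of -0.55 to 0.21, and it was not called (adjusted p = 0.668). This interval still covers a difference as far as -0.55, and HDAC3 protein was not analysed here. HDAC3 was read by a single probe set.

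Many other genes were called different between the hairpins. Of 19775 genes, 2492 were called different at an adjusted p under 0.05 (12.6%), with 1750 higher (8.85%) and 742 lower (3.75%) with shHDAC3#2. At least 2-fold differences were called for 287 genes (1.45%), 211 higher (1.07%) and 76 lower (0.384%) with shHDAC3#2. For 15234 genes (77%) the 95% interval lay within -0.5 to 0.5, called here the interval of likeness. Neither called nor inside it were 2077 genes (10.5%), HDAC3 among them. Both called and inside it were 28 genes. The median difference over all genes was -0.03. The arrays of the hairpins did not overlap for 10899 genes (55.1%). Without shHDAC3#2 replicate 2 the calls fell to 1635 (1005 higher and 630 lower), without shHDAC3#1 replicate 1 to 1656 (1112 and 544), without shHDAC3#1 replicate 2 to 1727 (1340 and 387) and without shHDAC3#2 replicate 1 to 2027 (1619 and 408).

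**Figure D1:**
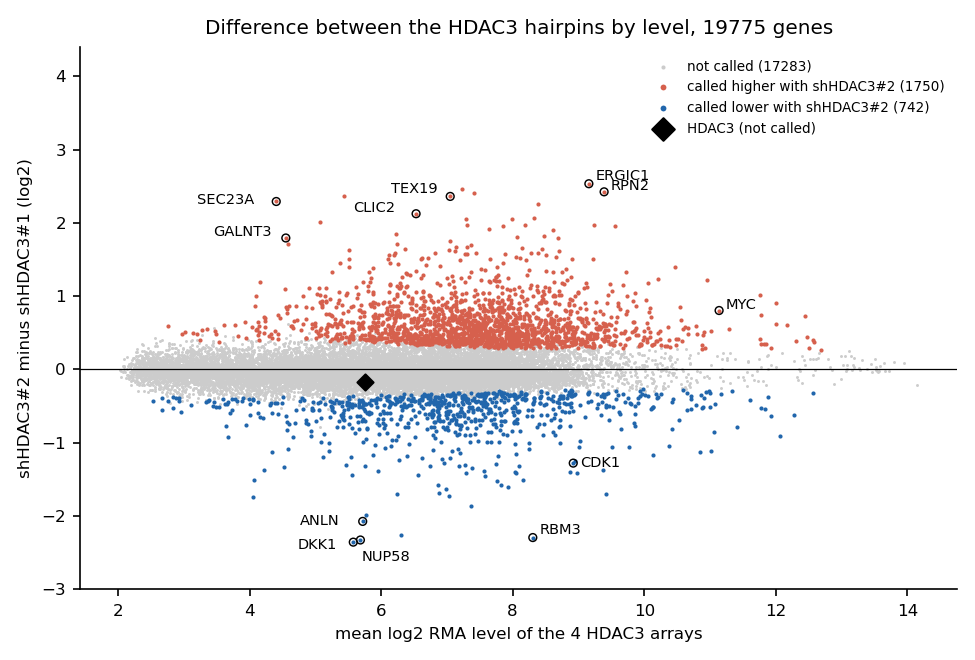
Difference between hairpins (shHDAC3#2 minus shHDAC3#1, log2, vertical axis) against the mean log2 level of the 4 HDAC3 arrays (horizontal axis) for 19775 genes, with 1750 called higher in red, 742 called lower in blue and HDAC3 as a black diamond. HDAC3 sits near 0 at -0.17, while ERGIC1 and RPN2 lie above 2 and DKK1, NUP58 and RBM3 below -2.

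The hairpins also differed in a measure of RNA integrity, which is given beside the counts that follow. The array carries probe sets for the 3′ and 5′ ends of the ACTB and GAPDH messengers, and their difference grows when transcripts are shortened or incompletely copied. For ACTB it was 0.985 and 1.02 with shHDAC3#1 and 0.737 and 0.737 with shHDAC3#2, against 0.635 to 0.807 in the other 6 arrays. For GAPDH it was 0.528 and 0.515 with shHDAC3#1 and 0.356 and 0.347 with shHDAC3#2, against 0.365 to 0.508 in the others. The shHDAC3#1 arrays thus stood above all others in both measures, without overlap with shHDAC3#2. With the ACTB difference as a covariate, 897 genes were called (746 higher and 151 lower), of which 773 were among the 2492, all 773 in the same direction. The share called lower went from 29.8% to 16.8%. This covariate largely follows the hairpin, and the median SE grew by a factor of 2.15, from 0.119 to 0.256. With group means in the fit, its slope comes only from differences between arrays of the same group. These were widest for shDNMT1#1 (0.807 and 0.635) and small within each HDAC3 hairpin. The adjustment between the HDAC3 hairpins thus rests largely on DNMT1 arrays and reaches beyond the differences it was fitted on. A larger SE lowers counts of calls even where differences keep their size. Over the 2492 genes the median absolute difference was 0.545 without the covariate and 0.633 with it. The part of the ACTB measure in the differences was not tested beyond this fit. Counts from this fit are given below as "with the ACTB covariate".

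Genes of the secretory pathway held several of the largest differences, and most of those called were lower with shHDAC3#1. Over all genes, too, more were called lower with shHDAC3#1 (8.85%) than higher (3.75%). Of the distinct genes in all 50 lists, 33.0% were called. Plasma cells make large amounts of protein that enter the endoplasmic reticulum (ER), receive sugar chains there, are folded by chaperones and leave in coated vesicles. RPN2, a subunit of the oligosaccharyltransferase that attaches N-linked sugars, was at 8.18 and 8.18 with shHDAC3#1 and 10.52 and 10.68 with shHDAC3#2. The shHDAC3#1 arrays lay far below the shHDAC3#2 arrays and below shLuc, at 11.13 and 11.18. The difference was 2.42 ± 0.09 (fold 5.36, adjusted p = 2.67e-13), and the other probe sets of RPN2 gave 2.34 and 2.53. Against shLuc RPN2 changed by -2.98 with shHDAC3#1 (adjusted p = 8.54e-15) and by -0.56 with shHDAC3#2 (adjusted p = 0.000197).

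MAGT1, another oligosaccharyltransferase subunit that also carries magnesium, differed by 1.64 ± 0.10 (adjusted p = 4.00e-10). OSTC and DDOST of the same complex differed by 0.61 and 0.51 (DDOST 0.13 in another probe set), while RPN1 (-0.01), STT3A (0.20), STT3B (0.05) and DAD1 (0.11), further subunits, were not called. SRP9, part of the signal recognition particle that brings nascent chains to the ER, went the other way at -1.12 ± 0.08 (adjusted p = 4.66e-09). In the list of translocon, signal peptidase and oligosaccharyltransferase genes, 9 of 33 measured members were called higher and 2 lower (33.3% called), with a median of 0.08. The 9 called higher became 2 with the ACTB covariate, and 4 without shHDAC3#1 replicate 1 and 4 without shHDAC3#2 replicate 2.

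Transport out of the ER differed through few genes with large values. SEC23A, a coat protein of vesicles that leave the ER, was at 3.29 and 3.23 with shHDAC3#1 and 5.41 and 5.69 with shHDAC3#2, against 6.12 and 5.86 with shLuc. LMAN1, a cargo receptor for glycoproteins, was at 8.29 and 8.22 with shHDAC3#1 and 10.15 and 10.29 with shHDAC3#2, against 9.99 and 10.00 with shLuc. ERGIC1, a membrane protein that cycles between ER and Golgi, was at 7.86 and 7.92 with shHDAC3#1 and 10.31 and 10.54 with shHDAC3#2, against 10.29 and 10.25 with shLuc. All 3 were low with shHDAC3#1 and not called different from shLuc with shHDAC3#2, and no array of 1 hairpin reached those of the other. The differences were 2.29, 1.96 and 2.53 (adjusted p = 3.06e-09, 7.39e-12 and 2.24e-13). The shHDAC3#1 levels of SEC23A were dim, and its other probe set, of mean 4.86, gave 0.57. SEC23B, the close relative of SEC23A, was at -0.04 and within the interval of likeness. In the ER-Golgi list, which does not hold ERGIC1, 3 of 34 measured members were called higher and 2 lower (14.7% called), with a median of 0.03, so that the list as a whole lay near the background. With the ACTB covariate 3 were called higher and none lower.

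Most of the called chaperones and oxidoreductases of the ER lumen were higher with shHDAC3#2 than with shHDAC3#1. PDIA4, a disulfide isomerase, was at 7.77 and 7.41 with shHDAC3#1 and 9.07 and 9.28 with shHDAC3#2, and CANX (calnexin), a lectin chaperone for glycoproteins, at 9.46 and 9.47 with shHDAC3#1 and 10.61 and 10.67 with shHDAC3#2. Both pairs of arrays were apart, with shHDAC3#2 closer to shLuc (9.51 and 9.54 for PDIA4 and 10.88 and 10.73 for CANX). The differences were 1.59 ± 0.12 for PDIA4 (adjusted p = 2.88e-09) and 1.18 ± 0.09 for CANX (adjusted p = 7.82e-09). P4HB, the abundant disulfide isomerase and collagen prolyl hydroxylase subunit, followed at 0.90, and HYOU1, an ER chaperone of the heat shock protein 70 family, at 0.86. HSPA5, the central ER chaperone also known as BiP, differed by 0.30 and CALR (calreticulin) by 0.39, with 0.09 and 0.13 in other probe sets, whereas HSP90B1 (0.09) and PDIA6 (-0.10) were not called. DNAJB11, a co-chaperone of HSPA5, was lower with shHDAC3#2 at -0.51. Over the list, 9 of 30 measured members were called higher and 2 lower (36.7% called), with a median of 0.16. The 9 called higher became 4 with the ACTB covariate, and 4 without shHDAC3#1 replicate 1 and 4 without shHDAC3#2 replicate 2.

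HERPUD1, a membrane protein of ER-associated degradation, was at 9.17 and 9.27 with shHDAC3#1 and 9.91 and 10.18 with shHDAC3#2, a difference of 0.82 (adjusted p = 7.49e-06), although its second probe set gave -0.14. EIF2AK3, the stress sensor PERK, was lower with shHDAC3#2 at -0.58 (0.01 in another probe set), a call lost with the ACTB covariate, and the sensor ATF6 was higher at 0.35. The sensor ERN1 (0.18) and the factor XBP1 (-0.20) were not called. Among genes of ER stress sensing and degradation, 7 of 27 measured members were called higher and 2 lower (33.3% called), with a median of 0.05. The 7 called higher became 2 with the ACTB covariate, and 3 without shHDAC3#1 replicate 1 and 2 without shHDAC3#2 replicate 2.

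The promoters of the ER chaperone genes often hold the ER stress response element (ERSE), the sequence CCAAT followed after 9 bases by CCACG, which ATF6 and NF-Y recognise. It was searched on both strands in RefSeq promoter windows of 300 bases, from 250 bases before to 50 after the gene start (GRCh38.p14). Of 29 ER chaperone genes with a window, 6 held it (20.7%), against 16 of 15384 windows of measured genes (0.104%). Among the 11 called members 3 had a match (27.3%) and among the 18 others 3 (16.7%). The called CANX, with a large difference, and HSPA5, with a small one, are shown with the 160 bases before the start and the match in capitals, to set the same element beside unequal responses.
CANX: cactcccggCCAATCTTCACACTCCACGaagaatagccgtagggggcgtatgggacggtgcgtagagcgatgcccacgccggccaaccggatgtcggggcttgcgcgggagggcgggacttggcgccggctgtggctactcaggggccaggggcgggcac
HSPA5: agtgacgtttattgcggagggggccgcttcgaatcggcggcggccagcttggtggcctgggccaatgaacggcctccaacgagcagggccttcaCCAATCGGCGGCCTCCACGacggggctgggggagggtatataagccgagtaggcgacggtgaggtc
The CANX window is chr5:179698769-179698928 on the + strand with the match 151 bases before the start, and the HSPA5 window is chr9:125241344-125241503 on the - strand with the match 66 bases before it. HSP90B1, not called, held 2 matches.

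Enzymes that build sugar chains differed in both directions, more often higher with shHDAC3#2. GALNT3, which starts mucin-type O-glycosylation, was at 3.53 and 3.78 with shHDAC3#1 and 5.37 and 5.53 with shHDAC3#2, and UAP1, which makes the sugar donor UDP-N-acetylglucosamine, at 7.37 and 7.19 with shHDAC3#1 and 8.74 and 8.88 with shHDAC3#2. Both hairpins left them below shLuc (6.58 and 6.39 for GALNT3 and 9.86 and 9.72 for UAP1), and shHDAC3#1 more so. The differences were 1.79 ± 0.13 (adjusted p = 4.28e-09) and 1.53 ± 0.11 (adjusted p = 1.74e-09). The shHDAC3#1 levels of GALNT3 were dim, and its other probe set, of mean 3.23, gave -0.12. DPAGT1, the first enzyme of N-glycan assembly, differed by 1.12, GALNT1 by 0.67 (-0.11 in another probe set of like brightness) and MAN1A1, a mannosidase, by 0.62. GFPT1 and GNPNAT1, which act before UAP1 in the same pathway, were lower with shHDAC3#2 at -0.76 and -0.60. In the glycan list, 10 of 30 measured members were called higher and 4 lower (46.7% called), with a median of 0.12. The 10 called higher became 6 with the ACTB covariate, and 4 without shHDAC3#1 replicate 1 and 4 without shHDAC3#2 replicate 2.

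**Figure D2:**
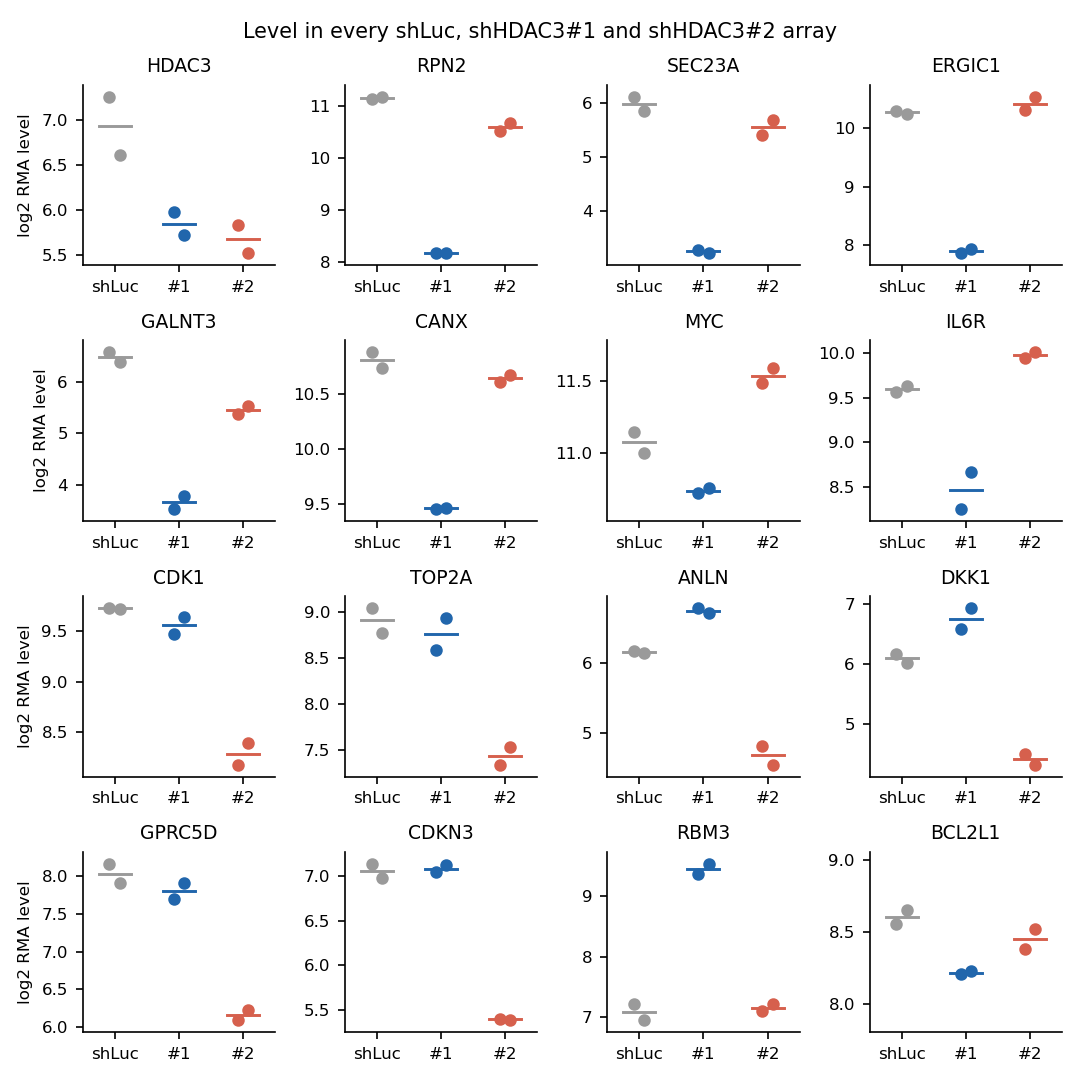
Log2 RMA level (vertical axes, a separate range per gene) of 16 genes in the 2 shLuc arrays (grey), 2 shHDAC3#1 arrays (blue) and 2 shHDAC3#2 arrays (red), with a line at each group's mean. HDAC3 is low with both hairpins, RPN2 to IL6R are lowest with shHDAC3#1, CDK1 to CDKN3 are lowest with shHDAC3#2, and RBM3 is high with shHDAC3#1 alone. BCL2L1 (0.23, not called) was added after its values were seen.

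Most mitotic genes lay in the other direction, lower with shHDAC3#2. Of 97 measured genes in 3 lists (mitotic kinases and checkpoint, kinetochore and centromere, spindle and cytokinesis), 60 were called lower and 1 higher (PMF1), and 28 lay within the interval of likeness. Over all genes 3.75% were called lower, 8.85% higher and 77% lay within that interval. ANLN (anillin), a scaffold of the cytokinetic ring, was at 6.79 and 6.72 with shHDAC3#1 and 4.81 and 4.55 with shHDAC3#2, against 6.17 and 6.15 with shLuc. CDK1, the kinase that drives entry into mitosis, was at 9.48 and 9.65 with shHDAC3#1 and 8.17 and 8.39 with shHDAC3#2, against 9.73 and 9.73 with shLuc. TOP2A, the topoisomerase that untangles sister chromatids, was at 8.59 and 8.94 with shHDAC3#1 and 7.34 and 7.54 with shHDAC3#2, against 9.04 and 8.77 with shLuc. The shHDAC3#2 arrays lay below the shLuc and shHDAC3#1 arrays for each gene, while the shHDAC3#1 arrays were above control for ANLN, just below it for CDK1 and overlapping it for TOP2A. The differences were -2.08 ± 0.13, -1.28 ± 0.11 and -1.32 ± 0.14 (adjusted p = 3.36e-10, 1.99e-08 and 5.01e-07). The shHDAC3#2 levels of ANLN were dim, and its other probe set, of mean 4.86, gave -1.08.

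In the spindle list, none of 32 measured members was called higher and 24 lower (75.0% called), with a median of -0.63. CEP55 and ECT2, which act in abscission and in placing the cleavage furrow, differed by -1.44 and -1.39, though a second probe set of ECT2, at a mean of 5.4, gave -0.41. KIF11, TPX2 and PRC1, which build and bundle the spindle, differed by -0.94, -0.86 and -1.16. Among mitotic cyclins, kinases and checkpoint genes, none of 31 measured members was called higher and 21 lower (67.7% called), with a median of -0.53. PBK, a mitotic kinase, differed by -1.40, the cyclins CCNA2, CCNB1 and CCNB2 by -0.90, -0.68 and -0.85 (CCNB2 -0.04 in another probe set), and AURKA by -0.71. PLK1 (-0.25), TTK (-0.19) and MYBL2 (-0.14) were not called. Among kinetochore and centromere genes, 1 of 34 measured members was called higher and 15 lower (47.1% called), with a median of -0.36. NUF2 of the NDC80 complex differed by -1.12 and CENPF by -1.02, while CENPA, the centromeric histone, was not called at -0.24. The 15 called lower became 1 with the ACTB covariate, and 9 without shHDAC3#1 replicate 2.

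Fewer cells in mitosis and less of these messengers per cell cannot be told apart in these bulk samples. The median over the spindle list was -0.63 and that over the mitotic kinase list -0.53, beside -0.03 for all genes. Against shLuc the medians were -0.20 with shHDAC3#1 and -0.84 with shHDAC3#2 for the spindle list, and -0.20 and -0.89 for the mitotic kinases. With the ACTB covariate 8 of the 97 were called lower and none higher, with median differences of -0.38 for the spindle list and -0.31 for the mitotic kinases. ANLN (-1.76, adjusted p = 0.000185) and CDK1 (-0.87, adjusted p = 0.0164) stayed called and TOP2A (-0.80, adjusted p = 0.0917) did not. Without shHDAC3#1 replicate 2 the 60 became 39, and the other single arrays left between 45 and 56.

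Many mitotic promoters carry the cell cycle homology region (CHR), TTTGAA, to which the DREAM complex and MYBL2 can bind. It was found on either strand in 48 of 81 windows of these genes (59.3%), against 1836 of 15384 (11.9%). It was in 32 of 51 windows of called members (62.7%) and in 16 of 30 of those not called (53.3%). The 60 bases before the start are shown for ANLN, HMMR, a spindle protein at -1.39, and PRC1, chosen because their matches lie close to the start, with matches in capitals.
ANLN: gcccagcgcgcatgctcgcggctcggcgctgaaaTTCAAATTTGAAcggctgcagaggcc
HMMR: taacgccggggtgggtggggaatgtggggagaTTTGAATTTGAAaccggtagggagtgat
PRC1: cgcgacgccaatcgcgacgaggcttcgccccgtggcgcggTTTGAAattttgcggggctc
These are chr7:36389802-36389861 (+ strand), chr5:163460572-163460631 (+ strand) and chr15:90994536-90994595 (- strand). In ANLN and HMMR 2 matches stand side by side within the last 28 bases before the start.

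Most of the called DNA replication genes were lower with shHDAC3#2, in smaller steps. GMNN (geminin), which blocks relicensing of origins, was at 8.35 and 8.40 with shHDAC3#1 and 7.10 and 7.28 with shHDAC3#2, with shLuc at 8.52 and 8.45. The shHDAC3#1 arrays were near control and the shHDAC3#2 arrays lower, with a difference of -1.18 ± 0.11 (adjusted p = 4.71e-08). ASF1B, a histone chaperone, differed by -0.78, ORC6 of the origin recognition complex by -0.69 and PCNA, the sliding clamp, by -0.45. Of the MCM helicase, MCM4 (-0.58, -0.07 in another probe set), MCM6 (-0.39) and MCM7 (-0.40) were called lower, and MCM2 (-0.18), MCM3 (0.01) and MCM5 (-0.02) were within the interval of likeness. TIMELESS, a fork protection protein, was higher at 0.86, with a second probe set at 0.10. Over the list, 2 of 47 measured members were called higher and 18 lower (42.6% called), with a median of -0.19. The 18 called lower became 1 with the ACTB covariate, and 9 without shHDAC3#1 replicate 2 and 9 without shHDAC3#2 replicate 1.

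The E2F sites TTTCGCGC, TTTCCCGC and TTTGGCGC were in 18 of 41 replication gene windows (43.9%) on either strand, against 564 of 15384 (3.67%). They were in 8 of 19 windows of called members (42.1%) and in 10 of 22 of the others (45.5%). The 100 bases before the start of 3 called members are shown with matches in capitals.
GINS2: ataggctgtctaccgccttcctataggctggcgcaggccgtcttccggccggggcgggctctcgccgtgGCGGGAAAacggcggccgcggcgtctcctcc
PCNA: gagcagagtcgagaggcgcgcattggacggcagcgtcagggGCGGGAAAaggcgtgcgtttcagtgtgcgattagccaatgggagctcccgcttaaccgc
MCM6: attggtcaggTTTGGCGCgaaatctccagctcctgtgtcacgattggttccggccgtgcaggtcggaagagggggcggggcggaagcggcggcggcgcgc
They lie at chr16:85688955-85689054, chr20:5126623-5126722 and chr2:135876444-135876543, all on the - strand. GINS2, a subunit of the replicative helicase, differed by -0.48 (0.05 in another probe set).

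Around the G1 to S transition, 3 of 23 measured members were called higher and 9 lower (52.2% called), with a median of -0.19. The repressors E2F7 (-1.19, -0.09 in another probe set) and E2F8 (-1.11), CDC25A (-0.99, -0.38 in another) and cyclin D2 (CCND2, -1.05, -0.49 in another) were lower with shHDAC3#2, and SKP2, which marks p27 for degradation, was higher at 1.49 ± 0.12 (adjusted p = 7.51e-09), with 0.23 in another probe set. The calls of E2F7 (-0.25, adjusted p = 0.784) and E2F8 (-0.80, adjusted p = 0.106) were lost with the ACTB covariate. The 9 called lower became 2 with the ACTB covariate, and 5 without shHDAC3#1 replicate 2. Among CDK inhibitors, CDKN3, a phosphatase of CDK1 and CDK2, was at 7.04 and 7.13 with shHDAC3#1 and 5.40 and 5.38 with shHDAC3#2, a difference of -1.70 (adjusted p = 8.09e-10) that its second probe set gave as -1.60. CDKN1A (p21) was at 10.17 and 10.16 with shHDAC3#1 and 9.48 and 9.65 with shHDAC3#2, against 9.64 and 9.51 with shLuc, so that shHDAC3#1 alone was above control and the hairpins differed by -0.60 (adjusted p = 4.11e-05). CDKN1B (p27) was not called at -0.34. For CDKN1A the call was lost with the ACTB covariate, at -0.60 (adjusted p = 0.1).

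Genes of nucleotide supply differed in both directions. IMPDH2, the rate-limiting enzyme of guanine nucleotide synthesis, was at 8.50 and 8.67 with shHDAC3#1 and 10.45 and 10.62 with shHDAC3#2, against 9.62 and 9.71 with shLuc. It lay below control with shHDAC3#1 and above control with shHDAC3#2, and differed by 1.95 ± 0.10 (fold 3.87, adjusted p = 2.46e-11). The purine enzymes PAICS (0.75), PPAT (0.66, 0.15 and -0.12 in others), ATIC (0.55) and GART (0.39) and the serine enzyme SHMT2 (1.17, with 1.03 in a second probe set and 0.32 in another) were likewise higher with shHDAC3#2. The deoxynucleotide enzymes RRM1 (-0.51) and TYMS (-0.52) were lower. RRM2, the other ribonucleotide reductase subunit, was at -1.70 in its brightest probe set, but a second one of mean level 8.94 gave 0.19, so its direction depends on the probe set. In the list, 8 of 23 measured members were called higher and 3 lower (47.8% called), with a median of 0.09. The 8 called higher became 3 with the ACTB covariate.

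MYC was higher with shHDAC3#2, as were the called genes of ribosome production, though most of the latter group lay within the interval of likeness (22 of 33 biogenesis genes and 46 of 52 ribosomal protein genes). MYC, the growth-driving transcription factor of many myelomas, was at 10.72 and 10.75 with shHDAC3#1 and 11.49 and 11.59 with shHDAC3#2, with shLuc between them at 11.14 and 11.00. The difference was 0.80 ± 0.09 (adjusted p = 8.81e-07), with -0.34 against shLuc for shHDAC3#1 and 0.47 for shHDAC3#2. Its partner MAX differed by 0.43 and MXD1, which competes with MYC for MAX, by 0.91, but 4 other probe sets of MAX gave -0.06 to 0.10 and another of MXD1 gave -0.05. Among ribosome biogenesis genes, 11 of 33 measured members were called higher and none lower (33.3% called), with a median of 0.19. NPM3, a nucleolar chaperone, NOB1, which matures the small ribosomal subunit, and FBL (fibrillarin) differed by 0.91, 0.82 and 0.52, whereas NCL (nucleolin, 0.10) and NPM1 (-0.03) were within the interval of likeness. The 11 called higher became 4 with the ACTB covariate, and 5 without shHDAC3#1 replicate 1 and 5 without shHDAC3#2 replicate 2. Among cytosolic ribosomal proteins, 8 of 52 measured members were called higher and none lower (15.4% called), with a median of 0.07, a share near the 12.6% of all genes. RPS21 (0.73) and RPL6 (0.61) led. The 8 called higher became 1 with the ACTB covariate, and 5 without shHDAC3#1 replicate 1 and 4 without shHDAC3#2 replicate 2.

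Antigen presentation genes were higher with shHDAC3#2 where they differed. HLA-DRA, the alpha chain of the class II molecule HLA-DR, was at 7.25 and 7.09 with shHDAC3#1 and 8.12 and 8.11 with shHDAC3#2, against 8.58 and 8.28 with shLuc, a difference of 0.95 ± 0.11 (adjusted p = 1.25e-06), which was 0.77 with the ACTB covariate (adjusted p = 0.0557). HLA-DPA1 (0.90), the protease CTSS (0.81), RFX5 (0.69) and CD74 (0.58, -0.11 and -0.14 in other probe sets) followed, and the master regulator CIITA was not called at -0.12. In the class II list, 7 of 16 measured members were called higher and none lower (43.8% called), with a median of 0.24. The 7 called higher became 2 with the ACTB covariate. In the class I list, 8 of 17 measured members were called higher and none lower (47.1% called), with a median of 0.33, led by the proteasome activator PSME1 (0.80) and tapasin (TAPBP, 0.78, 0.09 in a second probe set), with B2M not called at -0.01. The 8 called higher became 2 with the ACTB covariate. HLA genes are near copies of each other, so probe sets may read more than 1 of them. Among interferon-stimulated and RNA-sensing genes, 10 of 47 measured members were called higher and 2 lower (25.5% called), with a median of 0.06, led by CXCL10 (1.39), with ISG20 lower (-0.79). The 10 called higher became 3 with the ACTB covariate, and 5 without shHDAC3#1 replicate 1 and 4 without shHDAC3#2 replicate 2. Of the sensors of double-stranded RNA, EIF2AK2 (PKR) was called lower at -0.47 (0.04 in another probe set) and IFIH1 (-0.05) was not called, nor was the interferon gene IFNB1 (0.02).

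Signalling genes that matter for myeloma survival also differed. IL6R, the receptor of the myeloma growth factor interleukin 6, was at 8.26 and 8.67 with shHDAC3#1 and 9.94 and 10.00 with shHDAC3#2, against 9.56 and 9.63 with shLuc. Both shHDAC3#2 arrays were above control and both shHDAC3#1 arrays below, and the difference was 1.50 ± 0.11 (adjusted p = 2.96e-09), with other probe sets at 2.08 and 1.01. SOCS2 (1.18), a feedback inhibitor, and the survival kinase PIM2 (0.84) differed in the same direction, and IL6ST (0.05), STAT3 (0.08) and SOCS3 (-0.22) were not called. In that list, 4 of 19 measured members were called higher and none lower (21.1% called), with a median of 0.05. The 4 called higher became 3 with the ACTB covariate. Of the glucocorticoid receptor and its targets, 7 of 13 measured members were called higher and none lower (53.8% called), with a median of 0.33. SGK1, a kinase, was at 6.73 and 6.65 with shHDAC3#1 and 8.56 and 8.64 with shHDAC3#2, and DDIT4, an inhibitor of mTORC1, at 7.88 and 7.92 with shHDAC3#1 and 9.36 and 9.50 with shHDAC3#2, with differences of 1.91 and 1.53 (adjusted p = 8.62e-11 and 2.26e-09). NR3C1, the receptor itself, was not called at -0.09. The 7 called higher became 3 with the ACTB covariate.

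Plasma cell and myeloma genes differed in both directions. DKK1, the secreted Wnt inhibitor linked to bone lesions in myeloma, was at 6.58 and 6.94 with shHDAC3#1 and 4.48 and 4.31 with shHDAC3#2, against 6.16 and 6.02 with shLuc. The shHDAC3#1 arrays lay above control and the shHDAC3#2 arrays below it, and the difference was -2.36 ± 0.16 (fold 5.13, adjusted p = 8.50e-10). The shHDAC3#2 levels of DKK1 were dim, so the size of its difference is uncertain. GPRC5D and TNFRSF17 (BCMA), surface targets of myeloma therapy, were lower with shHDAC3#2 at -1.63 and -0.81, whereas SLAMF7, another such target, and MZB1, an ER chaperone of antibody assembly, were higher at 1.04 and 1.33 (SLAMF7 0.51 in another probe set). GPRC5D was at 7.69 and 7.90 with shHDAC3#1 and 6.09 and 6.24 with shHDAC3#2, against 8.16 and 7.90 with shLuc. The factors IRF4 and PRDM1, which define plasma cells, differed by -0.34 and -0.63 (adjusted p = 0.017 and 0.000563). Both calls were lost with the ACTB covariate, at -0.21 and -0.23 (adjusted p = 0.682 and 0.69), and that of IRF4 also without shHDAC3#1 replicate 2 (-0.25, adjusted p = 0.255) and without shHDAC3#2 replicate 1 (-0.27, adjusted p = 0.177). In this list, 8 of 26 measured members were called higher and 8 lower (61.5% called), with a median of -0.01. The 8 called lower became 3 with the ACTB covariate, and 4 without shHDAC3#1 replicate 2 and 5 without shHDAC3#2 replicate 1.

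Mitochondrial genes were divided. In the respiratory chain, 6 of 50 measured members were called higher and 13 lower (38.0% called), with a median of -0.07. Subunits such as COX7A2 (-0.85), NDUFA1 (-0.56), COX7B (-0.47) and COX8A (-0.45) were lower with shHDAC3#2, and others such as NDUFV1 (0.80), NDUFA10 (0.73, 0.07 in another probe set), SDHA (0.59) and CYC1 (0.45) were higher. NDUFV1 had a second probe set at -0.03. The 13 called lower became 2 with the ACTB covariate, and 8 without shHDAC3#1 replicate 2 and 8 without shHDAC3#2 replicate 1. In mitochondrial ribosomes and protein import, 14 of 40 measured members were called higher and 4 lower (45.0% called), with a median of 0.15, with TIMM17A lower at -1.17 (-0.41 in another probe set) and TOMM20, MRPL42 and MRPS27 higher at 0.94, 0.99 and 0.92 (MRPS27 0.03 in another). The 14 called higher became 7 with the ACTB covariate, and 7 without shHDAC3#1 replicate 1 and 7 without shHDAC3#2 replicate 2. CHCHD10, a protein of the intermembrane space, was at 7.37 and 7.13 with shHDAC3#1 and 9.40 and 9.62 with shHDAC3#2, a difference of 2.26 (adjusted p = 7.39e-12).

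The machinery that processes the hairpins was itself unequal. DICER1, which cuts them, was at 5.48 and 5.64 with shHDAC3#1 and 6.23 and 6.18 with shHDAC3#2, and AGO2, the slicing Argonaute, at 5.50 and 5.69 with shHDAC3#1 and 6.04 and 6.30 with shHDAC3#2. With shLuc they were at 6.10 and 5.81 and 6.60 and 6.22. The differences were 0.64 ± 0.13 (adjusted p = 0.000953) and 0.57 ± 0.14 (adjusted p = 0.00837), and XPO5 (0.67), DROSHA (0.56) and PRKRA (0.55) were also higher with shHDAC3#2. Other probe sets gave 0.78 and 0.05 for DICER1 and 0.16 and 0.50 for XPO5, the 0.16 in a probe set of like brightness. In this list, 5 of 12 measured members were called higher and 1 lower (50% called), with a median of 0.20. Without probe sets ending in _s_at or _x_at the median was -0.06. The 5 called higher became 1 with the ACTB covariate, and 3 without shHDAC3#1 replicate 1 and 2 without shHDAC3#2 replicate 2. The calls of DICER1 (0.85), AGO2 (0.92) and XPO5 (0.57) were among those lost with it, and AGO2 was also not called without shHDAC3#1 replicate 1 (0.48) or without shHDAC3#2 replicate 2 (0.44). Whether this bears on the knockdown was not tested.

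Of chromatin regulators, the hairpins differed in DNMT1, the target of the other knockdown. DNMT1 was at 7.14 and 7.29 with shHDAC3#1 and 7.64 and 7.89 with shHDAC3#2, against 8.49 and 8.33 with shLuc, a difference of 0.55 ± 0.12 (adjusted p = 0.00271) that was 0.15 with the ACTB covariate (adjusted p = 0.827). The call was also lost without shHDAC3#1 replicate 1 (0.48, adjusted p = 0.0595) and without shHDAC3#2 replicate 2 (0.43, adjusted p = 0.0896). UHRF1, its partner at replication forks, differed by 0.76 and DNMT3B by -0.75, both calls lost with the ACTB covariate (0.65 and -0.58, adjusted p = 0.154 and 0.254). In Polycomb repressive complex 2, none of 13 measured members was called higher and 4 lower (30.8% called), with a median of -0.12, with EZH2, the catalytic subunit, at -0.74 and SUZ12 at -0.46. Neither they nor any of the 13 were called with the ACTB covariate, and SUZ12 was not called without shHDAC3#1 replicate 2 (-0.33). Of the NCoR/SMRT genes besides HDAC3, TBL1XR1 was called at 0.58, but probe sets of it gave -0.40, -0.45, 0.54 and 0.30, and its direction depends on the probe set. TBL1X (-0.07), CORO2A (-0.01) and GPS2 (0.30) were not called. HDAC2 was higher (0.55) and HDAC9 lower (-0.63, -0.22 in another probe set and -0.35 with the covariate, adjusted p = 0.511) with shHDAC3#2, and HDAC1 was not called at 0.27.

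Some functions showed no call between hairpins. Of 20 BCL2 family and IAP genes none was called and 16 were within the interval of likeness, among them BCL2 (0.01), MCL1 (0.08) and BCL2L11 (BIM, 0.16). XIAP (-0.40) and BID (0.31) had the largest values. Of 14 histone acetyltransferase and bromodomain genes none was called and all 14 were within the interval, with EP300 at 0.04 and CREBBP at -0.14. By limma at an unadjusted p under 0.05, 3 of the 20 and 1 of the 14 passed. Cancer-testis genes (2 of 24 called) and imprinted genes (1 of 19 called) had shares of 8.33% and 5.26%, under the 12.6% of all genes.

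**Figure D3:**
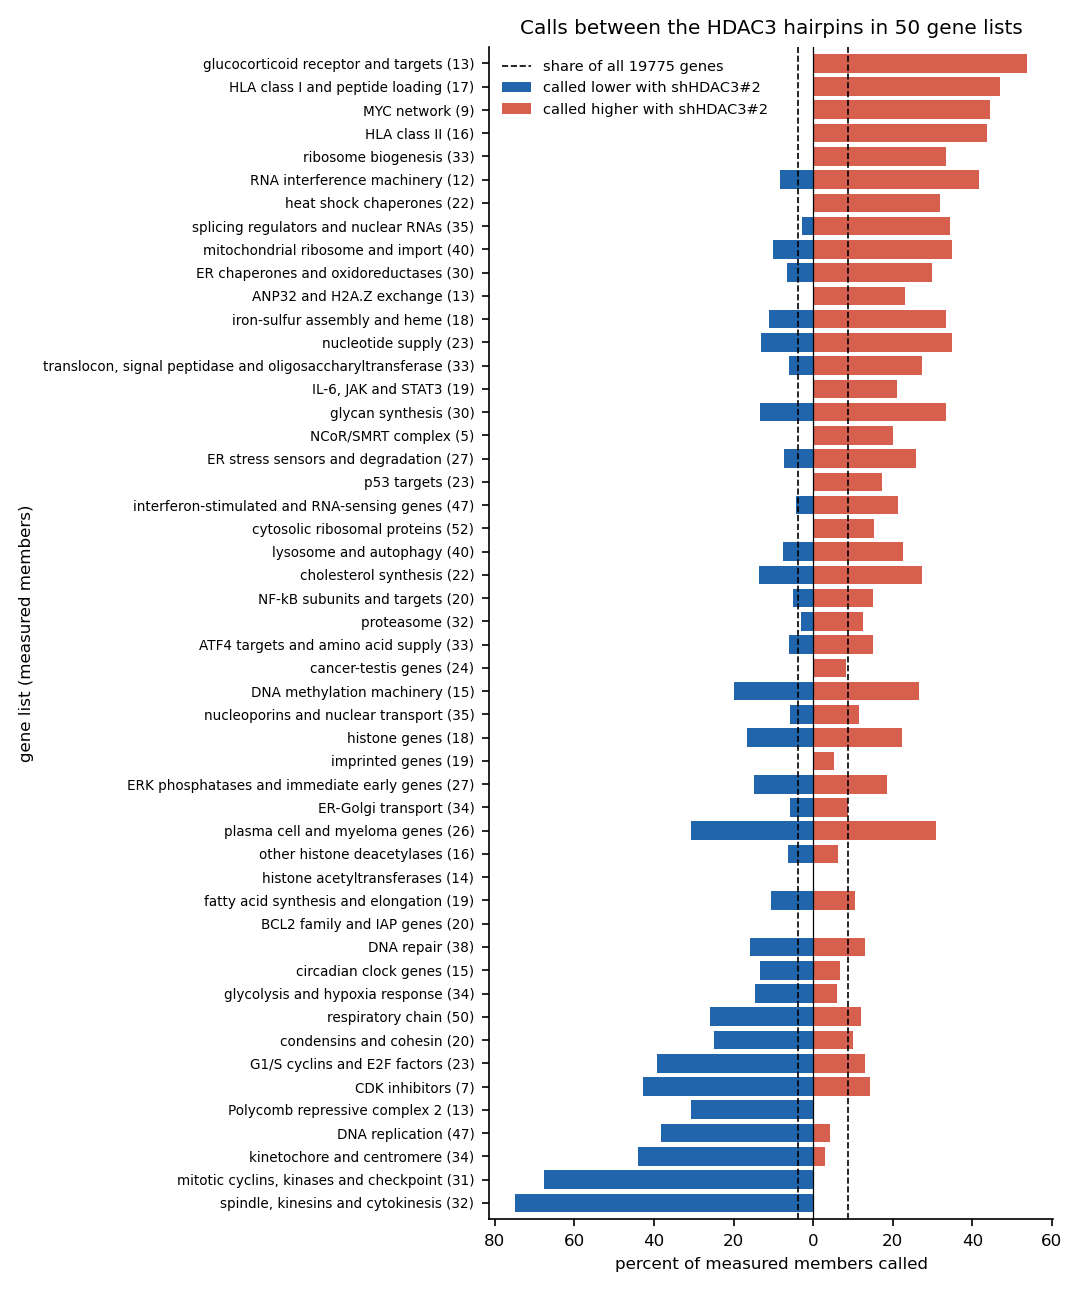
Percent of measured members called lower (blue, left) or higher (red, right) with shHDAC3#2 in 50 gene lists, ordered by the balance of calls, with the number of measured members in brackets. Dashed lines mark the 3.75% and 8.85% of all 19775 genes. The mitotic lists reach furthest left at 75.0% and 67.7%, and the glucocorticoid list furthest right at 53.8%.

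The remaining lists are given by their counts, followed in brackets by the counts with the ACTB covariate. Heat shock chaperones had 7 higher and 0 lower of 22 (1 and 0), splicing regulators 12 higher and 1 lower of 35 (7 and 0), lysosome and autophagy genes 9 higher and 3 lower of 40 (4 and 0), iron-sulfur assembly and heme 6 higher and 2 lower of 18 (2 and 0), cholesterol synthesis 6 higher and 3 lower of 22 (4 and 0) and proteasome genes 4 higher and 1 lower of 32 (2 and 0). Genes of the ATF4 programme had 5 higher and 2 lower of 33 (1 and 1), p53 targets 4 higher and 0 lower of 23 (2 and 0), NF-kB genes 3 higher and 1 lower of 20 (1 and 0), ERK phosphatases and immediate early genes 5 higher and 4 lower of 27 (2 and 1), DNA repair 5 higher and 6 lower of 38 (3 and 0) and glycolysis 2 higher and 5 lower of 34 (2 and 1). Nucleoporins and transport factors had 4 higher and 2 lower of 35 (0 and 2), condensins and cohesin 2 higher and 5 lower of 20 (1 and 0), histone genes 4 higher and 3 lower of 18 (1 and 2), ANP32 and H2A.Z exchange 3 higher and 0 lower of 13 (1 and 0), clock genes 1 higher and 2 lower of 15 (1 and 0) and fatty acid synthesis 2 higher and 2 lower of 19 (1 and 0). The MYC network had 4 higher and 0 lower of 9 (3 and 0), CDK inhibitors 1 higher and 3 lower of 7 (0 and 1), DNA methylation machinery 4 higher and 3 lower of 15 (1 and 0), other histone deacetylases 1 higher and 1 lower of 16 (2 and 1) and the NCoR/SMRT complex 1 higher and 0 lower of 5 (0 and 0). Over all 50 lists, 419 of 1270 distinct measured genes were called (33.0%), beside 12.6% of all genes, 16.0% of the 14763 genes with a mean level of at least 5 and 2.49% of the 5012 dimmer ones.

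Single genes outside the groups described first also had large differences. RBM3, a cold-inducible RNA-binding protein, was at 9.37 and 9.54 with shHDAC3#1 and 7.10 and 7.22 with shHDAC3#2, against 7.23 and 6.95 with shLuc. NUP58, a nucleoporin of the central channel, was at 6.58 and 7.12 with shHDAC3#1 and 4.59 and 4.45 with shHDAC3#2, against 5.02 and 4.78 with shLuc. Its shHDAC3#2 levels were dim, and its other probe sets, of means 4.21, 4.14 and 4.02, gave 0.12, -0.28 and -0.02. TEX19, a germline gene, was at 5.98 and 5.76 with shHDAC3#1 and 7.92 and 8.54 with shHDAC3#2, against 5.76 and 6.24 with shLuc. Each was called against shLuc with 1 hairpin and not with the other, and the differences were -2.30, -2.33 and 2.36 (adjusted p = 1.26e-10, 4.47e-10 and 1.64e-09). ZNF367, a zinc finger protein, and PON2, a paraoxonase, differed by -2.26 and -1.69, and KLHL5 and BLOC1S6 by 2.36 and 2.41 (KLHL5 0.91 in another probe set). KLHL5 was dim with shHDAC3#1, at 4.29 and 4.22. Of the 12 genes with the largest differences upward, 11 were lower than shLuc with shHDAC3#1 at an adjusted p under 0.05 and 2 were with shHDAC3#2. Of the 12 largest downward, 10 were lower than shLuc with shHDAC3#2 and 5 were higher than shLuc with shHDAC3#1. All 24 stayed called with the ACTB covariate, beside 773 of all 2492 called genes. They were chosen for the size of this same difference, so neither their staying called nor their place beside shLuc is a separate test of it.

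Of the 136 called list members that were named by rank, 45 were lower with shHDAC3#2 and 16 of these stayed called with the covariate. The other 91 were higher and 61 of them stayed called. With the covariate the median moved toward 0 for the replication (-0.04), kinetochore (-0.29), mitotic kinase (-0.31) and spindle (-0.38) lists. It moved away from 0 for ER chaperones (0.31), ribosome biogenesis (0.40) and the glucocorticoid list (0.46).

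**Figure D4:**
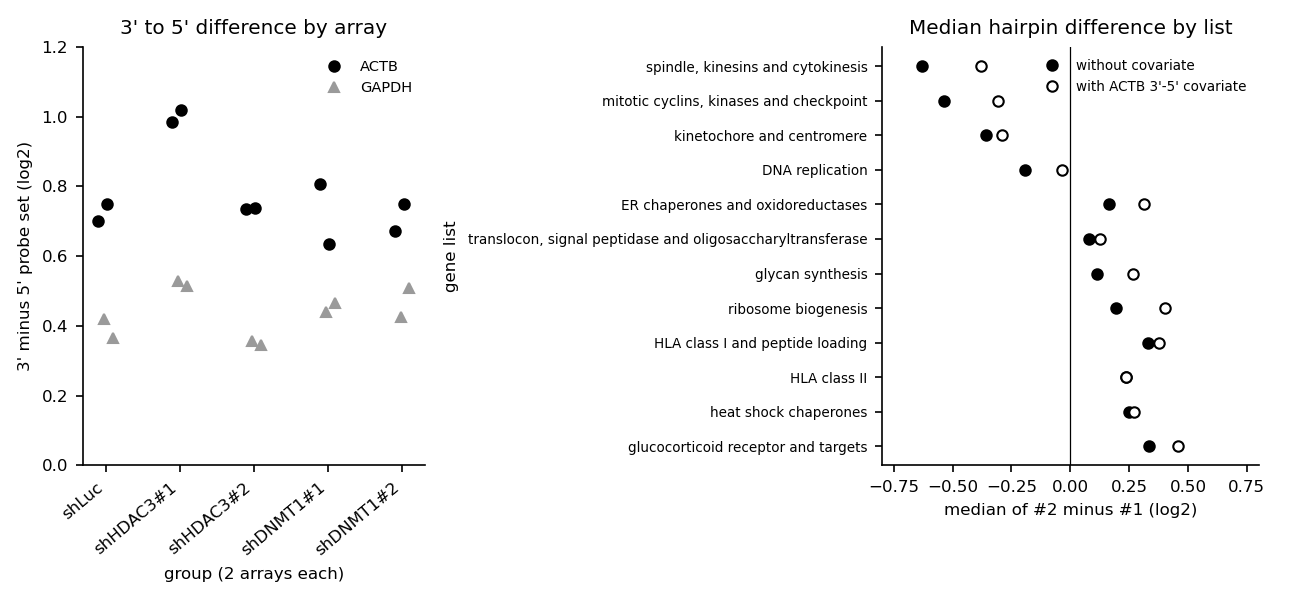
Left, 3′ minus 5′ probe set difference (log2) of ACTB (circles) and GAPDH (triangles) in each of the 10 arrays; the ACTB values of shHDAC3#1 are 0.985 and 1.02. Right, median hairpin difference (log2) of 12 lists without (filled) and with (open) the ACTB difference as a covariate, for example -0.63 and -0.38 for the spindle list.

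Markers of other cell types were compared as well. None of 8 epithelial, 8 stromal and 6 myeloid markers was called, and 1 of 8 T cell markers was (TRAT1, -0.40), but not without any single one of the 4 arrays (-0.44 to -0.37). Of 6 erythroid markers HBD and HBB were called lower with shHDAC3#2 at -1.25 and -0.85. Of 3 other HBB probe sets, the dimmest, of mean 5.4, gave 0.27 and the others -0.72 and -0.85. The summed level of these 6 ran from 42.7 to 42.8 with shHDAC3#1 and from 39.9 to 40.1 with shHDAC3#2, while KLF1 (-0.30), ALAS2 (-0.25) and AHSP (-0.13) were not called. The part of these markers in other differences was not tested. An array has no true zero, so absence could not be shown.

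Calls were checked against second probe sets. Of the called genes, 1233 had another probe set with a mean of at least 5, and 1023 of these (83.0%) had a difference in the same direction there, beside 68.0% over all 6516 genes with such a probe set. At least 50% of the difference in the same direction was seen for 667 (54.1%). Of 150 called genes with a difference of at least 2-fold, 130 had the same direction and 80 kept at least 50% of the difference.

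The size of the difference between hairpins was set beside that of the other target, with which it shares no array. Between shDNMT1#2 and shDNMT1#1, 2365 genes were called (12%), 706 higher (3.57%) and 1659 lower (8.39%) with shDNMT1#2, of which 230 (1.16%), 31 higher (0.157%) and 199 lower (1.01%), differed at least 2-fold. The spindle and mitotic kinase lists had medians of -0.49 and -0.36 there, and the ER chaperone and ribosome biogenesis lists -0.02 and 0.12. For the kinetochore, CDK inhibitor, replication and G1 to S lists the medians were -0.35, -0.33, -0.23 and -0.31. Between the HDAC3 hairpins those lists had -0.36, -0.34, -0.19 and -0.19. RPN2 (-0.19), IMPDH2 (0.17) and DKK1 (-0.26) were not called between the DNMT1 hairpins, and CDK1 (-1.30) and TOP2A (-1.14) were. SGK1 was called at -1.93 there. Whether the 2 differences themselves differ was not tested.

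These values bound what the mean of both hairpins can say of HDAC3. That mean, set against shLuc, called 3801 genes (19.2%), 784 higher (3.96%) and 3017 lower (15.3%). Of these 3801, 1416 (37.3%) were called different between hairpins and 1908 (50.2%) were within the interval of likeness. Over all genes these shares were 12.6% and 77%, and 16.0% of genes with a mean level of at least 5 were called. Among the 170 (0.86%) with a mean change of at least 2-fold, 6 higher (0.0303%) and 164 lower (0.829%), 123 were called different between hairpins and 27 were within the interval. A further 1076 genes differed between hairpins without a call for their mean. Without shLuc replicate 1 the mean called 1410 genes, of which 751 (53.3%) differed between hairpins. Without shLuc replicate 2 it called 4022, of which 1268 (31.5%) did.

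The 20 genes that led the mean show both situations. OSTM1, a lysosomal membrane protein, was 2.19 against shLuc with shHDAC3#1 and 1.48 with shHDAC3#2, large with each although the hairpins were called different at -0.71 (adjusted p = 0.00162), a call lost without shHDAC3#1 replicate 2 (-0.54), without shHDAC3#2 replicate 1 (-0.55) or with the ACTB covariate (-0.20, adjusted p = 0.8). DEPDC1, a gene of proliferating cells, was -1.91 and -1.94, with a hairpin difference of -0.03 and an interval of -0.30 to 0.24. CLDND1, at 1.11 and 0.92, was the other one within the interval of likeness. RBM3 was 2.37 and 0.07, NUP58 1.95 and -0.38, and TEX19 -0.13 and 2.23, so that 1 hairpin alone was called for each. On the falling side ANP32E, a chaperone of H2A.Z, was -2.15 and -1.43, but its hairpin difference of 0.72 was -0.53 in another probe set, so that the order of the hairpins depends on the probe set. LGALS1 (galectin 1) was -1.56 and -1.87, whereas KLHL5 was -2.87 and -0.50 and RPN2 -2.98 and -0.56. The hairpin difference of LGALS1 (-0.31) was not called in the main fit. It was called by limma after a further quantile normalization (-0.40, adjusted p = 0.00211) and with array weights (adjusted p = 0.0269). RRP1B (0.35), likewise not called in the main fit, was called with array weights (adjusted p = 0.034). In all, 13 of the 20 were called different between hairpins, 2 had opposite signs and 2 were within the interval. Each hairpin's change was taken against the same 2 shLuc arrays.

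**Figure D5:**
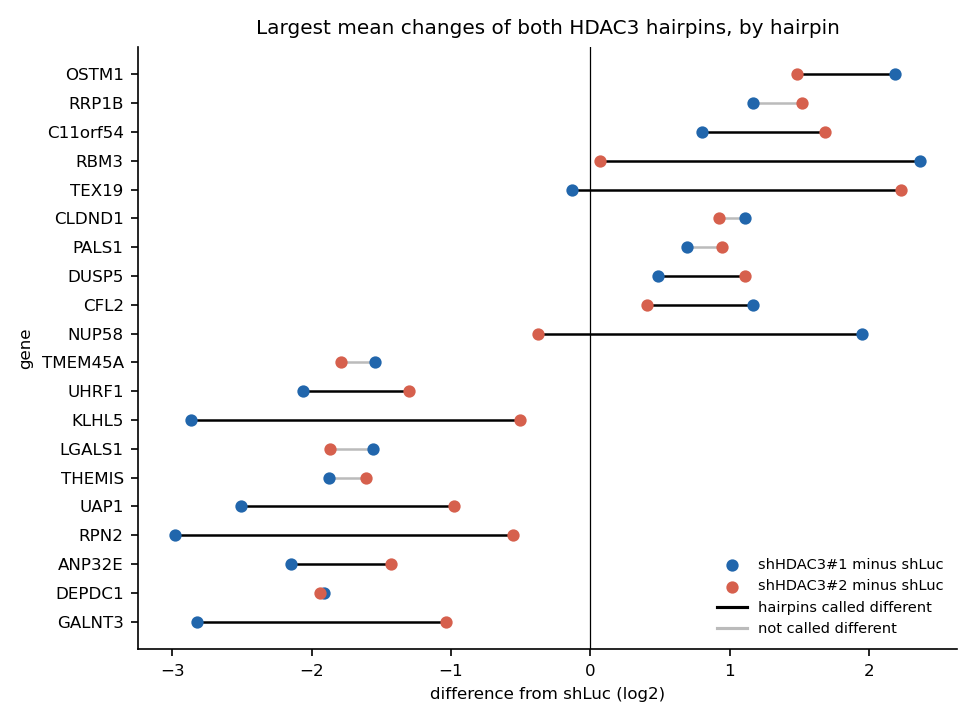
Difference from shLuc (log2, horizontal axis) with shHDAC3#1 (blue) and shHDAC3#2 (red) for the 10 largest increases and 10 largest decreases of the mean of both hairpins. Black lines join the 13 pairs called different and grey lines the 7 that were not; DEPDC1 has its points on top of each other and RBM3, NUP58, TEX19, KLHL5 and RPN2 have them far apart.

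For a gene called between hairpins, these arrays cannot tell a part that follows HDAC3 from a part that follows 1 hairpin, its dose or its RNA. This holds for the secretory, glycan, mitotic, MYC, IL6R and DKK1 results above. Counts called in the secretory, glycan and mitotic lists were also lower with the ACTB covariate, in a fit with a larger SE. Medians moved toward 0 there for the mitotic lists, but away from 0 for ER chaperones (0.31) and glycan synthesis (0.27). For the 1908 genes called for the mean and within the interval of likeness, that interval bounds the difference between hairpins on these arrays. Of these 1908, 27 had a mean change of at least 2-fold. For smaller mean changes, a difference inside the interval can be as large as the change itself. Such a gene may have changed mainly with 1 hairpin, and how many of the 1908 changed with each hairpin alone was not tested.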

How the data were processed

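Total RNA of 10 MM.1S samples (5 groups of 2 arrays) was measured on a 3′ expression array. The deposited values are log2 probe set signals made by the authors with RMA, per the submitters' processing notes. Neither the RMA version nor whether all arrays shared 1 run is stated in those notes. Of 54675 probe sets, 41091 had a single gene symbol, 1801 several and 11721 none in the platform annotation, and 62 were controls. The brightest probe set of each single symbol over the 10 arrays was kept (19775 genes), with no filter on dim ones. limma 3.58.1 in R 4.3.3 (lmFit, eBayes with trend) fitted 5 group means to all 10 arrays with 5 residual degrees of freedom. The contrast was shHDAC3#2 minus shHDAC3#1, two-sided, with Benjamini-Hochberg adjustment over all genes, and genes were called at an adjusted p under 0.05. Every adjusted p is limma's. The number of arrays limits the precision.

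Named genes were HDAC3, the 12 largest differences each way among called genes without overlap, up to 3 leading called members of each of 50 lists, MYC, CDKN1A, IRF4, PRDM1, DNMT1 and the 20 largest mean changes. Genes of chromosome Y, XIST and LOC symbols were left out. The members and lists were chosen with earlier results of these data known. Promoter sequences are RefSeq's (GRCh38.p14), upstream of the gene start and matched by symbol. Alternatives covered the arrays fitted, dim and cross-hybridizing probe sets, normalization, moderation, weights, a replicate block, the ACTB covariate and single arrays left out. Leaving out shLuc arrays was chosen after seeing the data. Replicate numbers do not pair the samples: deviations of same-numbered arrays correlated between -0.34 and 0.27. The script was tested on simulated data.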

Additional observations from a re-analysis of the deposited data

How the results depend on the processing

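Directions of the hairpin difference held under most settings, while counts moved with the RNA measure and with single arrays. With the ACTB covariate 897 genes were called (746 higher, 151 lower), and 605 lay within the interval of likeness, with wider intervals by construction. Without probe sets ending in _s_at or _x_at, 1162 were higher, from fewer genes tested. Leaving out 1 HDAC3 array gave 1635 to 2027 calls, 1005 to 1619 higher and 387 to 630 lower. For the mean of both hairpins against shLuc, leaving out a shLuc array gave 1410 to 4022 calls. With the replicate number as a block 2302 were called (1616 higher, 686 lower), but the numbers do not pair the samples. A further quantile normalization moved the share called lower from 29.8% to 36.9%.

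Signs turned for some values, and the cause was not tested beyond the change of probe set. Without _s_at or _x_at probe sets, MFNG became -0.047, RRM2 0.19, ECT2 0.041, HERPUD1 -0.14, TNFAIP8 0.17, SLC1A4 0.0090, CHORDC1 -0.13, SQSTM1 -0.21, CTAG2 -0.05 and HBB 0.27. In the same setting the list medians were -0.062 for RNA interference machinery, -0.017 for splicing regulators and nuclear RNAs and 0.042 for markers of stromal cells. The median of ERK phosphatases and immediate early genes was 0.016 with the ACTB covariate, and that of histone acetyltransferases ran from -0.033 to 0.076 without single HDAC3 arrays.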
